A study of Mus musculus with 6 samples.

Results

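Microfold cells are epithelial cells that carry particles and microbes across a mucosal surface, and medullary thymic epithelium holds cells that resemble them. The windows of 6 of their genes, Spib, Sox8, Gp2, Tnfaip2, Marcksl1 and Anxa5, were chosen by gene symbol from 27095 gene windows of an ATAC-seq study. Each symbol matched 1 window and all 6 passed the filter on low counts. ATAC-seq counts the DNA pieces that the transposase Tn5 cuts out of accessible chromatin, so the values describe accessibility in these windows and not expression. For Sox8 and Anxa5 only a stretch well upstream of the gene start was counted, as described below. The libraries were made from medullary thymic epithelial cells sorted high for MHC class II, of C57BL/6 background mice: 3 were labelled Kat7 knockout and 3 wildtype, with a separate biological replicate behind each. KAT7 is a histone acetyltransferase. The sources used here give neither the promoter or Cre line behind the deletion, nor the deleted exons, nor the age of the mice. In bulk samples of this kind, fewer microfold-like cells and a less accessible window in each such cell cannot be told apart.

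In the gut, microfold cells arise when RANKL, the product of Tnfsf11, binds its receptor RANK on crypt cells and sets off NF-kB signalling through RELB and p52. The ETS-family factor SPIB and the SOX-family factor SOX8 then act in their maturation in the mouse, and GP2 is a surface receptor of mature microfold cells that binds bacterial FimH. TNFAIP2, MARCKSL1 and ANXA5 are less restricted markers, which act in membrane tubes between cells, in actin control downstream of protein kinase C and in calcium-dependent binding of phosphatidylserine. The same RANK and NF-kB route drives the growth of medullary thymic epithelium itself.

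Libraries held 15482439 to 19740835 counts in knockout and 15494911 to 19832326 in wildtype, given below as CPM, counts scaled to library size after TMM scaling. The Kat7 window held 11.9, 13.2 and 38.3 CPM in knockout libraries 1 to 3 and 290.7, 238.3 and 272.1 CPM in wildtype libraries 1 to 3, and fell (log2 fold change -3.66, edgeR adjusted p = 0.0143). Leaving out wildtype library 1 (adjusted p = 0.0643), wildtype library 3 (0.0565) or library 1 of both groups (0.0658) ended that call. Knockout library 1 stood apart in its scaling factor (0.884, against 0.984 to 1.06 in the other libraries). The windows of 10 medullary epithelial genes, Epcam, Cd74 and Aire among them, lay at percentile 77.5 of wildtype level or higher, with a summed 1640.5 to 1975.4 CPM in knockout libraries and 1690.6 to 1760.2 CPM in wildtype libraries. None of these 10 fell and 1 rose, the basal keratin gene Krt5 (log2 fold change 0.61). Summed over 7 B cell genes the level was 56.4 to 60.7 CPM in knockout libraries and 118.2 to 119.4 CPM in wildtype libraries, and 4 of the 7 fell (Ebf1, Cd79b, Pax5 and Blk). Ebf1 alone had 21.7 CPM in the knockout and 63.9 CPM in wildtype, while Cd79a (log2 fold change -0.19), Ms4a1 (0.03) and Cd22 (0.17) did not pass. Over 8 myeloid and dendritic genes it was 86.6 to 96.6 CPM in the knockout and 98.7 to 106.0 CPM in wildtype, with 4 lower (Csf1r, Lyz2, Spi1 and Fcer1g). The 7 genes of plasmacytoid dendritic cells had 342.2 to 393.0 CPM in the knockout and 326.9 to 360.6 CPM in wildtype, with 1 lower (Ccr9). Most of that sum came from Irf8, Bst2 and Tcf4, with 129.3, 123.0 and 90.2 CPM in the knockout and 129.0, 110.5 and 78.2 CPM in wildtype, whereas Siglech had 2.32 CPM in the knockout and 1.59 CPM in wildtype. Of 8 thymocyte genes 6 were tested, with 34.5 to 37.3 CPM in the knockout and 27.7 to 31.6 CPM in wildtype, and 2 rose (Cd4 and Cd8a). Over all windows tested, 20.2% fell and 6.36% rose. By quartile of mean level, from lowest to highest, 1.35%, 32.5%, 43.2% and 3.72% fell. The median wildtype percentile was 91.55 for the medullary epithelial, 44.7 for the B cell and 40.3 for the myeloid and dendritic genes. It was 47.2 for the plasmacytoid dendritic and 29.9 for the thymocyte genes. No tested window of these lists was at 0 in any library. The part of such cells in the results below was not tested.

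Of the 6 microfold windows, 2 fell in the knockout, those of Sox8 and Gp2, none rose and 4 did not pass. Over all 24817 windows tested, 20.2% fell and 6.36% rose, 26.6% in all (edgeR's quasi-likelihood test, Benjamini-Hochberg adjusted p under 0.05 over all windows). At an unadjusted p under 0.05 in edgeR the counts over the 6 were still 2 lower and 0 higher, and DESeq2 and limma-voom gave the same counts. The median log2 fold change, knockout over wildtype, was 0.01 over the 6 windows and 0.04 over all windows. All knockout libraries lay below all wildtype libraries at Sox8 and Gp2, all lay above at Anxa5, and the groups overlapped at Spib, Tnfaip2 and Marcksl1. Over all windows 24.6% were separated downward and 13.5% upward, 38.2% in all.

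The sequences around the starts of 4 of the genes are shown because the windows differ in base composition and in which part of them was counted: the windows that fell, Sox8 and Gp2, then Spib, the most accessible, and Marcksl1, which holds a searched motif. They are the 250 bases before and 50 after the start in RefSeq (GRCm38.p6, the assembly behind mm10), given 5′ to 3′ along the gene's strand, and capitals mark the word GAGGAA, the core bound by SPIB and its relatives. Sox8 lies on the minus strand at chr17:25570637-25570936, Gp2 on the minus strand at chr7:119459223-119459522, Spib on the minus strand at chr7:44532022-44532321 and Marcksl1 on the plus strand at chr4:129513331-129513630.
Sox8: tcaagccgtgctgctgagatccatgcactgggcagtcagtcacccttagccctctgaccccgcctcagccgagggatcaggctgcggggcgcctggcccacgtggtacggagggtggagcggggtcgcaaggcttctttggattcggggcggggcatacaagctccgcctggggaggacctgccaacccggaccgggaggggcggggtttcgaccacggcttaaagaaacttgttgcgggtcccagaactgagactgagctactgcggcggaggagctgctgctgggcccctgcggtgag
Gp2: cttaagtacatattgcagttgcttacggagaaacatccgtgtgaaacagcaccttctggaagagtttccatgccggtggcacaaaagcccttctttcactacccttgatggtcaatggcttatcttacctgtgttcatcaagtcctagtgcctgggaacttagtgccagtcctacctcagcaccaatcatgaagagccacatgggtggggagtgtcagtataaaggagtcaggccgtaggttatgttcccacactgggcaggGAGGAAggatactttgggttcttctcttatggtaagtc
Spib: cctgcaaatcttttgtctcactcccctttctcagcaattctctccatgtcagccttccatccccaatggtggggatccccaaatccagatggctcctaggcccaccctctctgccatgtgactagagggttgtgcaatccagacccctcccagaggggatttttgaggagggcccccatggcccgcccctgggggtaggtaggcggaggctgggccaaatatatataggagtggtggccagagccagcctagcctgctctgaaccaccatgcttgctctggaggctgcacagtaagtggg
Marcksl1: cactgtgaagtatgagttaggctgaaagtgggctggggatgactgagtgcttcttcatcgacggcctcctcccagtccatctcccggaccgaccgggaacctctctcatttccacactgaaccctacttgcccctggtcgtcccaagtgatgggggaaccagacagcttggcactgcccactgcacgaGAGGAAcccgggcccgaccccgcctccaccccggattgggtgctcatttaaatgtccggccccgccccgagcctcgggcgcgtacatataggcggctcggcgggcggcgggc

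In these 300 bases Spib held 2 CpG and Gp2 4, whereas Anxa5 held 16, Sox8 21, Marcksl1 22 and Tnfaip2 23, against a median of 7 over 32851 promoters of this length. The ratio of observed to expected CpG was 0.0796 at Spib and 0.229 at Gp2, percentiles 10.5 and 32.9 of all promoters. It lay between 0.589 and 0.745 at the other 4. Of the windows counted in full, Spib, Gp2, Tnfaip2 and Marcksl1, the 2 with CpG-poor promoters were thus the most and the least accessible, as described below. The start regions of Sox8 and Anxa5 were not counted and cannot be ranked with them. The word GAGGAA, searched on both strands, occurred once at Gp2, from base 13 after the start, and once at Marcksl1, from 62 bases before it, and in none of the other 4; 28.3% of all promoters hold it. The SOX word ACAAAG, also searched on both strands, was in none of the 6 and in 18.7% of all promoters, so the words overlapped nowhere here. These are matches of letters only.

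Each of the 6 windows spans 5001 bases, 3000 upstream and 2000 downstream of the gene start. The windows of Spib, Gp2, Tnfaip2 and Marcksl1 shared no base with another window. That of Sox8 shared 4126 bases with Cerox1, a noncoding RNA gene, and that of Anxa5 shared 4051 with 1810062G17Rik. Windows without a base of their own had a median count of 0, against 224.3 for windows that shared none, so reads in shared stretches appear to be left out of the table. The counts of Sox8 therefore describe only 875 bases, 2126 to 3000 upstream of its start, and those of Anxa5 only 950 bases, 2051 to 3000 upstream. All 300 bases of each start region, the Sox8 sequence printed above included, lie in the stretch that is not counted.

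Spib, the ETS factor, had the most accessible window of the 6 (gene ID 272382, chromosome 7, 44530071 to 44535071). It held 219.8, 190.9 and 171.3 CPM in knockout libraries 1 to 3 and 210.7, 200.7 and 195.1 CPM in wildtype libraries 1 to 3. The knockout libraries spread wider, at both the top and the bottom of the 6, and the groups overlapped. The mean was 194.0 ± 24.4 CPM in the knockout and 202.2 ± 7.90 CPM in wildtype (SD, n = 3 each). The change did not pass (log2 fold change -0.06, SE 0.127, edgeR adjusted p = 0.775). The 95% normal interval of that change ran from -0.31 to 0.19. Spib is also a gene of B cells and plasmacytoid dendritic cells, whose summed levels are given above.

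Sox8, the SOX-family factor, fell (gene ID 20681, chromosome 17, 25568686 to 25573686). Its counted stretch held 5.21, 4.90 and 5.69 CPM in knockout libraries 1 to 3 and 12.5, 11.1 and 11.2 CPM in wildtype libraries 1 to 3. Every knockout library lay under 6 CPM and every wildtype library above 11. The means were 5.27 ± 0.397 CPM in the knockout and 11.6 ± 0.786 CPM in wildtype (SD, n = 3 each), which left 45.4% of the wildtype level (log2 fold change -1.14, SE 0.163, edgeR adjusted p = 4.86e-11). The raw counts behind this were 91, 82 and 93 in the knockout and 244, 174 and 189 in wildtype. Of all tested windows 5.33% had a lower log2 fold change, whether or not they passed.

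Gp2, the surface receptor for bacterial FimH, fell to a like degree (gene ID 67133, chromosome 7, 119457272 to 119462272). It held 3.78, 3.82 and 4.77 CPM in knockout libraries 1 to 3 and 7.53, 7.22 and 10.2 CPM in wildtype libraries 1 to 3. The groups did not overlap, and wildtype library 3 stood above the other wildtype libraries. The means were 4.12 ± 0.559 CPM in the knockout and 8.31 ± 1.61 CPM in wildtype (SD, n = 3 each), which left 49.7% (log2 fold change -1.01, SE 0.188, edgeR adjusted p = 8.26e-07). Raw counts were 66, 64 and 78 in the knockout and 147, 113 and 172 in wildtype. A lower log2 fold change, passed or not, was found in 7.31% of all tested windows. Without wildtype library 3 the log2 fold change was -0.87.

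Tnfaip2, which takes part in membrane nanotubes, did not pass (gene ID 21928, chromosome 12, 111439661 to 111444661). Its window held 128.3, 114.7 and 113.7 CPM in knockout libraries 1 to 3 and 110.0, 114.5 and 109.6 CPM in wildtype libraries 1 to 3. Knockout library 1 was the highest of the 6 and the groups overlapped. The means were 118.9 ± 8.11 CPM in the knockout and 111.4 ± 2.68 CPM in wildtype (SD, n = 3 each; log2 fold change 0.09, SE 0.122, edgeR adjusted p = 0.615). The 95% interval ran from -0.14 to 0.33.

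Marcksl1, an actin-binding substrate of protein kinase C, did not pass either (gene ID 17357, chromosome 4, 129510581 to 129515581). It held 191.5, 163.0 and 153.1 CPM in knockout libraries 1 to 3 and 157.4, 165.1 and 156.9 CPM in wildtype libraries 1 to 3. Knockout libraries were both the highest and the lowest. The means were 169.2 ± 19.9 CPM in the knockout and 159.8 ± 4.59 CPM in wildtype (SD, n = 3 each; log2 fold change 0.08, SE 0.126, edgeR adjusted p = 0.677, 95% interval -0.16 to 0.33). Its direction rested on knockout library 1, without which the log2 fold change was -0.020.

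Anxa5, the phosphatidylserine-binding annexin, had the fewest counts (gene ID 11747, chromosome 3, 36473887 to 36478887). Its counted stretch held 2.92, 2.93 and 4.10 CPM in knockout libraries 1 to 3 and 2.25, 2.68 and 2.24 CPM in wildtype libraries 1 to 3. All knockout libraries were above all wildtype libraries, and knockout library 3 was the highest. The means were 3.32 ± 0.677 CPM in the knockout and 2.39 ± 0.251 CPM in wildtype (SD, n = 3 each), and the difference did not pass (log2 fold change 0.47, SE 0.294, edgeR adjusted p = 0.251). Raw counts of 51, 49 and 67 in the knockout and 44, 42 and 38 in wildtype lie behind it, and the 95% interval, -0.11 to 1.05, is the widest of the 6.

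**Figure D1:**
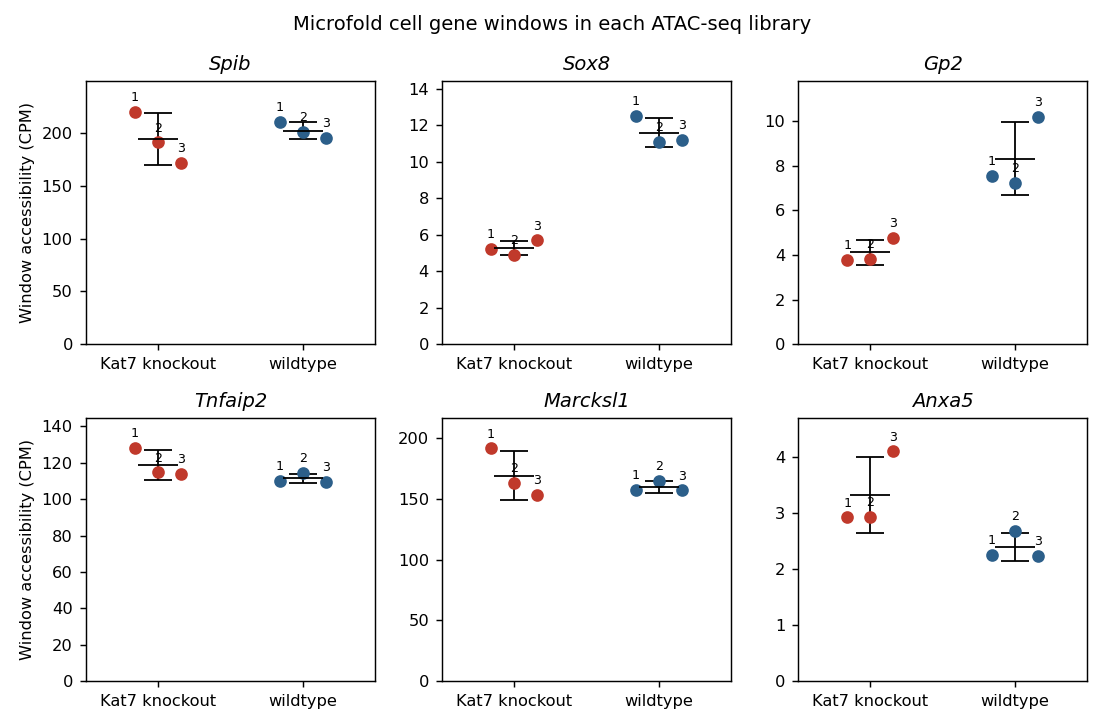
Accessibility in CPM (vertical axes, from 0) of the 6 microfold gene windows in each of 3 Kat7 knockout libraries (red) and 3 wildtype libraries (blue); numbers are the labels' replicate numbers, and black bars give the mean and SD. At Sox8 the knockout libraries sit between 4.90 and 5.69 CPM and the wildtype libraries between 11.1 and 12.5 CPM, at Gp2 they are also apart, and at Spib, Tnfaip2 and Marcksl1 the groups overlap.

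Levels of different genes were compared as CPM per kilobase of unshared window. For Sox8 and Anxa5 that is only 875 and 950 bases upstream, without the start region. Their places below are those of these stretches and cannot be read as ranks of the genes. In the knockout the order was Spib (38.8 ± 4.88), Marcksl1 (33.8 ± 3.99), Tnfaip2 (23.8 ± 1.62), Sox8 (6.02 ± 0.454), Anxa5 (3.49 ± 0.713) and Gp2 (0.825 ± 0.112; SD, n = 3 each). In wildtype it was Spib (40.4 ± 1.58), Marcksl1 (32.0 ± 0.919), Tnfaip2 (22.3 ± 0.536), Sox8 (13.3 ± 0.898), Anxa5 (2.52 ± 0.264) and Gp2 (1.66 ± 0.323; SD, n = 3 each). Neighbours in this order did not overlap in any pair of either group except Spib and Marcksl1 in the knockout, where Spib ranged from 34.2 to 43.9 and Marcksl1 from 30.6 to 38.3.

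Among all tested windows the wildtype CPM of Spib lay at percentile 97.8, that of Marcksl1 at 95.5 and that of Tnfaip2 at 89.1. Sox8 was at percentile 49.7, Gp2 at 45.3 and Anxa5 at 28.1. By quartile of mean level over all libraries, Spib, Marcksl1 and Tnfaip2 belonged to the most accessible quartile, in which 3.72% of windows fell and 9.32% rose. Sox8, Gp2 and Anxa5 belonged to the second quartile from the bottom, in which 32.5% fell and 4.58% rose, with a median log2 fold change of -0.27. In the lowest quartile 1.35% fell and 2.26% rose, and in the quartile above that of Sox8 and Gp2 43.2% fell and 9.28% rose. By CPM, the 2 windows that fell were thus from a level at which lower calls were common. These ranks are not divided by counted length. Those of Sox8 and Anxa5 rest on 875 and 950 counted bases, so they are not ranks per kilobase.

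**Figure D2:**
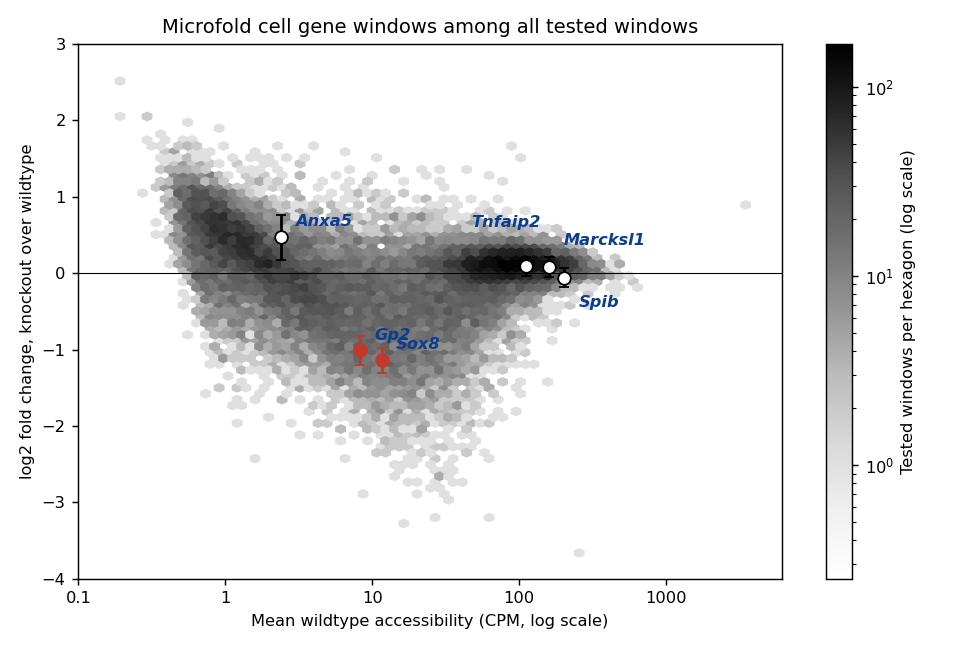
Mean wildtype accessibility (CPM, log axis) against the log2 fold change, knockout over wildtype, for all tested windows (grey hexagons, darker where more windows lie) and for the 6 microfold genes (circles with SE bars; filled red where adjusted p is under 0.05). Sox8 (-1.14) and Gp2 (-1.01) lie in the low part of the cloud at middle levels, Spib, Marcksl1 and Tnfaip2 lie near 0 among the most accessible windows, and Anxa5 is at 0.47.

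Of 14 further microfold marker genes, 4 fell, none rose and 10 did not pass, with a median log2 fold change of -0.06. Over all windows 20.2% fell and 6.36% rose. At an unadjusted p under 0.05 in edgeR, 1 gene was higher (Aif1), and DESeq2 and limma-voom each called 1 higher. Of the genes that did not pass, Aif1 was higher in 8 of 15 alternative settings and Serpinb1a lower in 7 of 15. Pglyrp1, a peptidoglycan recognition protein, fell to 21.7 ± 0.823 CPM in the knockout, against 36.2 ± 5.01 CPM in wildtype (SD, n = 3 each; log2 fold change -0.74, edgeR adjusted p = 1.49e-09). Ccl20, the chemokine that draws CCR6-bearing lymphocytes, fell to 6.46 ± 1.68 CPM in the knockout, against 11.2 ± 0.179 CPM in wildtype (log2 fold change -0.79, edgeR adjusted p = 4.61e-06). With loess offsets that flatten any trend of fold change against level, Ccl20 no longer passed (-0.34, adjusted p = 0.0928). Ctsh, a lysosomal protease (log2 fold change -0.56), and Gjb2, the gap junction protein connexin 26 (-0.50), fell as well. The chemokine gene Ccl9 had 13.7 ± 0.827 CPM in the knockout and 11.7 ± 2.56 CPM in wildtype and did not pass (log2 fold change 0.24, edgeR adjusted p = 0.206, overlapping window). With an adjusted p of 0.00131 it was higher after loess normalisation (0.68).

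Of 17 genes of the RANK and NF-kB route and of factors that act on microfold maturation, 3 fell, none rose and 14 did not pass. That is 17.6% lower, against 20.2% lower and 6.36% higher over all windows. The list had a median log2 fold change of 0.11. At an unadjusted p under 0.05 in edgeR, 1 was higher (Traf6), while DESeq2 called 1 higher and limma-voom 2. Tnfsf11, the gene of RANKL, fell to 4.61 ± 0.834 CPM in the knockout, against 9.96 ± 0.834 CPM in wildtype (SD, n = 3 each; log2 fold change -1.12, edgeR adjusted p = 2.27e-09). Tnfrsf11b, the decoy receptor osteoprotegerin, fell to 40.1 ± 2.75 CPM in the knockout, against 53.3 ± 1.85 CPM in wildtype (log2 fold change -0.41, edgeR adjusted p = 0.0015). Esrrg, an orphan nuclear receptor that acts ahead of SOX8 in mouse microfold cells, fell to 39.2 ± 4.0 CPM in the knockout, against 51.3 ± 2.14 CPM in wildtype (-0.39, edgeR adjusted p = 0.00299). All 3 also passed as lower in each of 15 alternative settings.

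The receptor and the NF-kB subunits did not pass. Tnfrsf11a, the gene of RANK, had 131.2 ± 17.3 CPM in the knockout and 112.8 ± 6.06 CPM in wildtype (SD, n = 3 each; log2 fold change 0.22, edgeR adjusted p = 0.189), with the lowest knockout library at 120.0 and the highest wildtype library at 119.6 CPM. Relb had 312.5 ± 30.0 CPM in the knockout and 340.6 ± 12.1 CPM in wildtype (log2 fold change -0.12, edgeR adjusted p = 0.527). Relb was lower in 5 of 15 alternative settings and Tnfrsf11a higher in 2. Calls in this list depended on the setting: 7 of its genes were higher with library totals alone and 8 with the filter at a mean count of 50.

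Relatives from the members' own gene families were mixed: of 21, 20 were tested, 4 fell, 3 rose and 13 did not pass (median log2 fold change -0.06). That is 20% lower and 15% higher, against 20.2% and 6.36% over all windows. Anxa10, an annexin, fell to 6.54 ± 1.93 CPM in the knockout, against 18.7 ± 3.98 CPM in wildtype (SD, n = 3 each; log2 fold change -1.52, edgeR adjusted p = 1.74e-24). The annexin genes Anxa3 (log2 fold change -0.59, adjusted p = 2.21e-06) and Anxa9 (-0.36, adjusted p = 0.0224) fell, although Anxa9 was at 0.05 after loess normalisation. Anxa1 rose to 49.1 ± 2.28 CPM in the knockout, against 32.2 ± 4.90 CPM in wildtype (log2 fold change 0.61, edgeR adjusted p = 5.44e-07), and Anxa7 rose by less (0.32, adjusted p = 0.0333). The Anxa7 call was lost without wildtype library 1 (adjusted p = 0.196) or knockout library 2 (0.0529), and the Anxa9 call when knockout library 2 (0.132), knockout library 3 (0.103) or wildtype library 3 (0.111) was left out. Spi1, which encodes the SPIB relative PU.1, fell at low levels of 2.77 ± 0.840 CPM in the knockout and 4.42 ± 0.690 CPM in wildtype (log2 fold change -0.67, edgeR adjusted p = 0.0338) and passed in 6 of 15 alternative settings, with adjusted p from 0.0792 to 0.276 without wildtype library 2, wildtype library 3, knockout library 1 or knockout library 2. It is also one of the myeloid genes counted above. Sox9, of the same SOX subgroup as Sox8, rose to 162.6 ± 12 CPM in the knockout, against 126.1 ± 10.2 CPM in wildtype (log2 fold change 0.37, edgeR adjusted p = 0.0143), a call lost without wildtype library 1 (adjusted p = 0.106). Annexin genes were thus called in both directions, 3 lower and 2 higher, while Anxa5 did not pass.

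**Figure D3:**
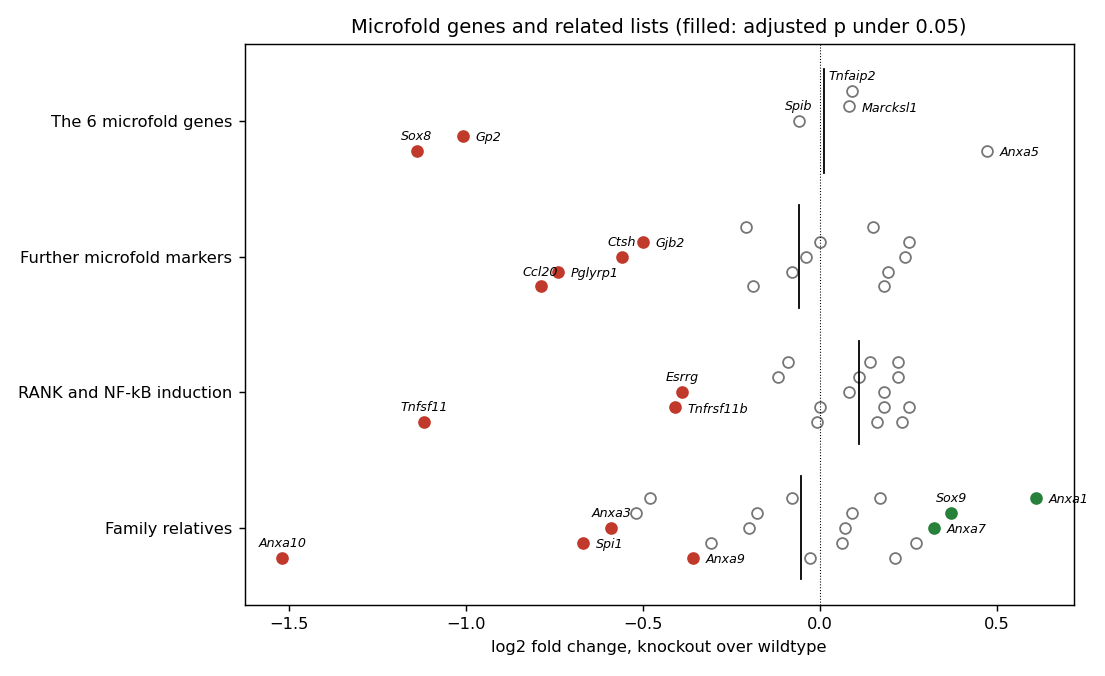
Log2 fold change, knockout over wildtype (horizontal axis), of each tested window of the 6 microfold genes, 14 further microfold markers, 17 RANK and NF-kB genes and 20 family relatives; filled points passed at an adjusted p under 0.05 (red lower, green higher), and black lines are list medians. Lower calls occur in all 4 lists, and higher calls only among the family relatives (Anxa1, Sox9 and Anxa7).

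The 2 nearest windows on either side of each member, 24 in all, gave 6 that fell (25.0%, against 20.2% over all windows) and none that rose (against 6.36%). None was higher at an unadjusted p under 0.05 in edgeR, or by DESeq2 or limma-voom. Around Spib, Tnfaip2 and Marcksl1 none of 12 passed, at log2 fold changes from -0.26 to 0.20. Next to Spib, Mybpc2 had 0.19 and Pold1 0.02. Next to Tnfaip2, its family relative Exoc3l4 had -0.08 and Gm266 -0.26. Gm266 did not pass (edgeR adjusted p = 0.0663), but its knockout libraries all lay below its wildtype libraries. It passed as lower in 9 of 15 alternative settings. Next to Marcksl1, Tssk3 had -0.20 and Hdac1, a histone deacetylase, 0.03.

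Of the 4 windows around Sox8, 3 fell. The overlapping window of Cerox1, whose 875 unshared bases lie on the far side of the Sox8 start, fell to 6.46 CPM in the knockout, against 8.75 CPM in wildtype (log2 fold change -0.44, SE 0.168, edgeR adjusted p = 0.035), but it passed in only 4 of 15 alternative settings and was at 0.01 after loess normalisation. Leaving out any library except knockout library 3 gave Cerox1 an adjusted p of 0.0529 to 0.229. Sstr5, a somatostatin receptor gene whose window centre lies 73.4 kb away, fell to 4.33 CPM in the knockout, against 12 CPM in wildtype (-1.47, edgeR adjusted p = 8.39e-17). Gng13, a G protein subunit gene 145.5 kb away on the other side, fell less (-0.49), and Lmf1 between Sox8 and Gng13, 7.49 kb from Sox8, did not pass (-0.14, edgeR adjusted p = 0.425).

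Around Gp2, 1 of 4 windows fell. Gpr139, an orphan receptor gene 274.9 kb away and the nearest window on its side, fell to 3.50 CPM in the knockout, against 15.7 CPM in wildtype (log2 fold change -2.17, edgeR adjusted p = 5.59e-37). Umod, the family relative of Gp2 and the nearest window on the other side, had 2.19 ± 0.599 CPM in the knockout and 3.05 ± 0.358 CPM in wildtype and did not pass (SD, n = 3 each; -0.48, edgeR adjusted p = 0.27). Next to Anxa5, the overlapping window of 1810062G17Rik fell to 3.61 CPM in the knockout, against 5.40 CPM in wildtype (-0.58, edgeR adjusted p = 0.0361), on the far side of the stretch that holds the Anxa5 start. It passed in 5 of 15 alternative settings, and leaving out any library except knockout library 1 gave an adjusted p of 0.0619 to 0.244. A window without a symbol 28.3 kb from Anxa5 also fell (-0.31, edgeR adjusted p = 0.0275), but not when knockout library 2 (adjusted p = 0.149), knockout library 3 (0.0997) or wildtype library 3 (0.0637) was left out, nor after loess normalisation (-0.07, adjusted p = 0.565), with RLE size factors (0.117) or with DESeq2 (0.132), and Gm11548 on the other side did not pass (-0.33).

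**Figure D4:**
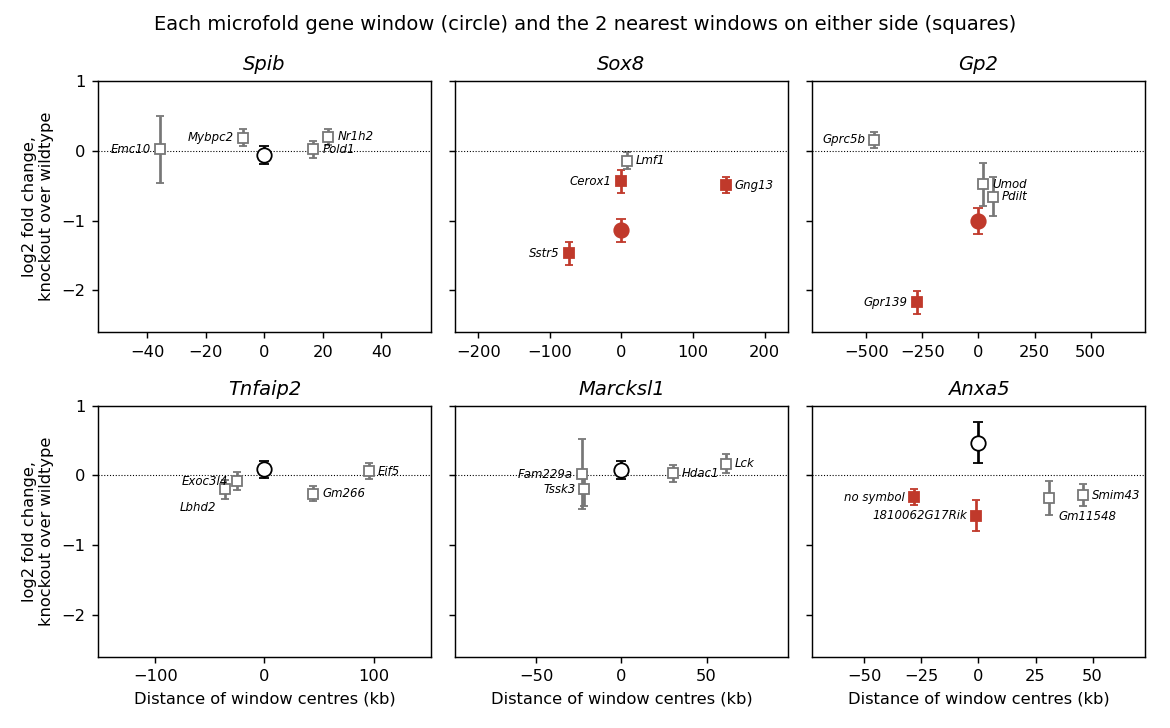
Log2 fold change, knockout over wildtype, of each microfold gene window (circle at 0) and of the 2 nearest windows on either side (squares), by the distance between window centres in kilobases along the chromosome; bars are SE, and filled red symbols passed as lower. The windows around Spib, Tnfaip2 and Marcksl1 lie between -0.26 and 0.20 and none passed. Sstr5 near Sox8 (-1.47) and Gpr139 near Gp2 (-2.17) lie lowest.

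Likeness in level and change together was measured as the root mean square difference in log2 CPM over the 6 libraries. The windows most like Sox8 were those of Efnb3 (0.088), an ephrin gene, and Osr1 (0.092), a zinc finger factor gene, at log2 fold changes of -1.25 and -1.10. Those most like Gp2 were Agmo (0.118) and Clec10a (0.133), with -0.85 and -1.07. Ftl1 and Snord3b2 were nearest to Spib, Itpkc and Rab10os to Tnfaip2, Krcc1 and Mthfs to Marcksl1, and Gm10862 and Parp9 to Anxa5. Under a difference of 0.2 lay 95 windows for Sox8, 49 for Gp2, 16 for Anxa5, 419 for Spib, 775 for Marcksl1 and 1208 for Tnfaip2. The measure is not centred on each window's own level, so close windows have like levels and like fold changes by construction. These counts therefore do not show a pattern of change apart from level.

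The calls at Sox8 and Gp2 held in all 15 alternative settings, with log2 fold changes from -1.21 to -0.69 at Sox8 and from -1.14 to -0.60 at Gp2. The smallest declines were those after loess normalisation, -0.69 at Sox8 (adjusted p = 0.000791) and -0.60 at Gp2 (adjusted p = 0.0074). Under that setting Spib also fell (-0.18, adjusted p = 0.00233) and Anxa5 rose (0.60, adjusted p = 0.0344). No alternative setting called Tnfaip2 or Marcksl1. Of all calls 23.9% were higher; after loess normalisation this share was 46.8%, and it was 35.6% when libraries were scaled by their totals.

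**Figure D5:**
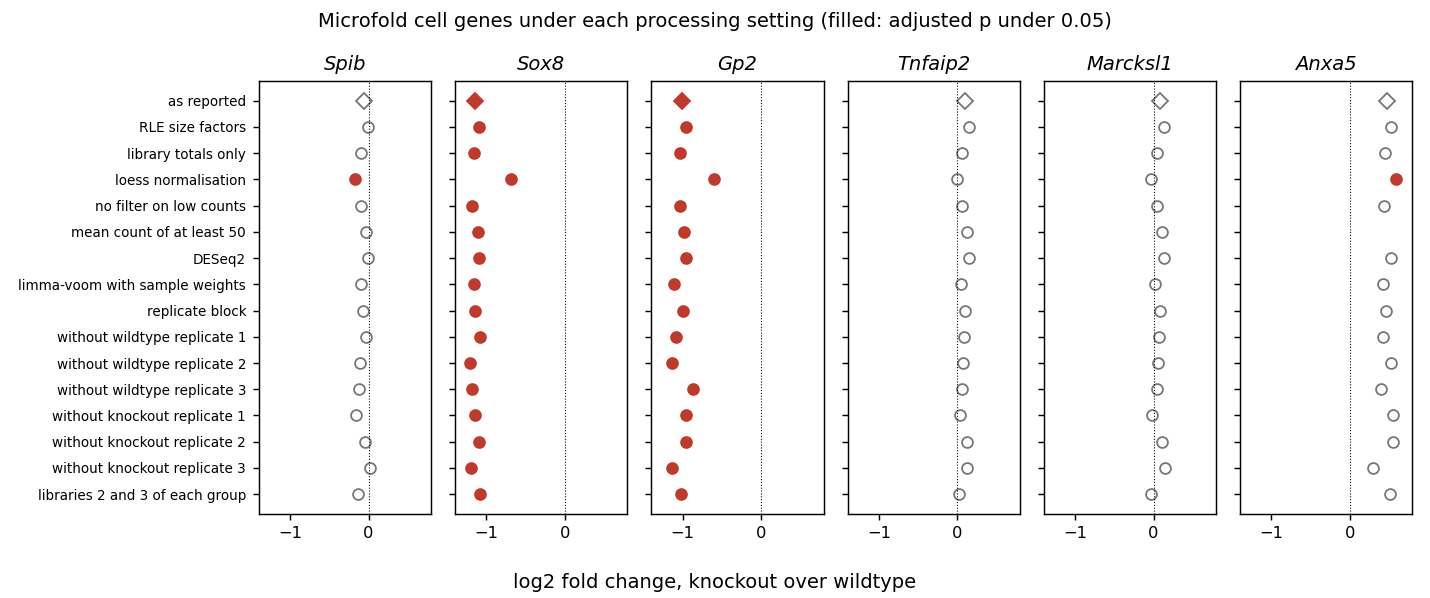
Log2 fold change, knockout over wildtype, of the 6 microfold genes (panels) under each processing setting (rows; diamonds, as reported); filled red points have an adjusted p under 0.05. Sox8 and Gp2 are filled and below 0 in every row, and Spib and Anxa5 are filled only after loess normalisation.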

How the data were processed

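The authors counted reads per gene window with featureCounts on mm10, per the submitters' processing notes, and deposited whole-number counts for 6 libraries. No source used here gives the aligner, the treatment of duplicates or any Tn5 shift; duplicates can raise the count of a window. The tables of all 6 libraries equalled the series table. Symbols came from the library tables, matched by gene ID.

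The test was edgeR 4.0.16 under R 4.3.3: filterByExpr left 24817 of 27095 windows, TMM scaling, robust glmQLFit and glmQLFTest on group, Benjamini-Hochberg over all windows at 0.05. The biological coefficient of variation was 10.9%. A count of 3, the floor for a count of 0, was 0.154 to 0.192 CPM and covers counting error only. The fit was tested on simulated data. Alternatives used DESeq2 1.42.0, limma 3.58.1 (voom), other scalings and filters, a replicate block and left-out libraries. A log2 CPM used a prior count of 2.

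The members and lists were chosen with earlier results of these data known. Named were the 6 members, list members and flanking windows past the threshold, 5 preset genes (Tnfrsf11a, Relb, Esrrg, Ccl9, Ccl20), the nearest window on either side, and the 2 most similar windows per member. Aif1, Serpinb1a and Traf6 were named in addition, for unadjusted or alternative results. A single marker of the B cell list is not reported here and was left out of its sum and counts.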

Additional observations from a re-analysis of the deposited data

How the results depend on the processing

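The count of members called lower was 2 in 14 of 15 alternative settings and 3 after loess normalisation; members called higher numbered 0 except for 1 after loess normalisation. Windows higher numbered 2937 with library totals only, 4299 after loess normalisation, 3937 with the filter at a mean of 50, 4723 with limma-voom, 2824 with the replicate block and 2664 with libraries 2 and 3 alone, against 1578; leaving out 1 library gave 689 (without wildtype library 1) to 3177 (without knockout library 1). Further microfold markers called higher, 0 as reported, numbered 3 after loess normalisation and with the filter at a mean of 50, 1 with library totals only, without a filter, with DESeq2, with limma-voom and with the block, and 0 to 1 with 1 library left out (1 without wildtype library 2). RANK and NF-kB genes called lower were 5 after loess normalisation, and those called higher were 7 with library totals only, 3 after loess normalisation, 8 with the filter at a mean of 50, 1 with DESeq2, 2 with limma-voom, 1 with the block and 0 to 2 with 1 library left out (2 without wildtype library 2). Family relatives called lower, 4 as reported, were 2 with DESeq2, 7 with limma-voom and with libraries 2 and 3 alone, and 2 to 4 with 1 library left out (2 without wildtype library 3 or knockout library 2). Those called higher, 3 as reported, were 6 after loess normalisation, with library totals only and with the filter at a mean of 50, 5 with limma-voom, and 1 to 4 with 1 library left out (1 without wildtype library 1). Flanking windows called lower, 6 as reported, were 3 with RLE size factors and with DESeq2, 10 with limma-voom and 3 to 6 with 1 library left out (3 without knockout library 2); those called higher, 0 as reported, were 2 after loess normalisation and with library totals only and 3 with the filter at a mean of 50.

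Loess normalisation put Spib at -0.178 and Anxa5 at 0.596, both past the threshold, and turned the uncalled log2 fold changes of Tnfaip2 to -0.0042 and Marcksl1 to -0.033. Marcksl1 was at -0.030 with libraries 2 and 3 alone and ran from -0.020 to 0.15 with 1 library left out, and Spib ran from -0.163 to 0.022 (above 0 without knockout library 3). The cause of these shifts was not tested. Anxa5 has no value with the filter at a mean of 50, which removed it. The labels do not say whether same-numbered libraries were handled together. Deviations of same-numbered libraries from their group means correlated at 0.374, 0.028 and 0.389 across windows. Pairs with unlike numbers ran from -0.445 to 0.308. A shared batch was not tested. With the replicate block Sox8 had -1.14 and Gp2 -1.0, 2 members were lower, and 5537 windows were lower. The block gave 8361 calls over all windows, against 6589 as reported. Depth limits Anxa5 most, at 38 to 67 counts per library, then Gp2 at 64 to 172.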
